A study of Mus musculus with 9 samples.

Results

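The circadian clock genes examined here were Per1, Per2, Per3, Cry1, Cry2, Arntl, Clock, Nr1d1, Nr1d2 and Dbp, 10 of 19505 named genes on the array, taken by symbol. No measured value entered that rule, but earlier results of these data were known when it was set. Hippocampal RNA of 9 male mice of a C57BL6 strain by the labels (C57BL/6NCrSlc by the study's methods) was hybridised to Affymetrix Mouse Clariom S arrays, 1 array per mouse. The OldD group was mice 2, 6 and 11 and the Old group mice 3, 8 and 18, all 47 weeks of age, and the Young group was mice 7, 19 and 20 at 11 weeks. The suffix D was read as decline, which makes the OldD mice the adults with the lowest scores in 2 cognitive tests, the Old mice the adults with the highest scores, and the Young mice the young group with normal cognition. No transgene or treatment is named for any of them. The adult groups are the extremes of 1 cohort rather than random draws from it. The methods give an automatic cycle of light and darkness in the animal room, and the hour at which each hippocampus was taken is not given in the sources used here.

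The clock is a feedback loop of transcription in nearly every cell. BMAL1, the product of Arntl, pairs with CLOCK on E-box sequences and switches on the Per and Cry genes, whose proteins return to the nucleus and inhibit the pair. A further loop runs through the REV-ERB receptors (Nr1d1 and Nr1d2), which repress Arntl, and output factors such as DBP pass the rhythm on to other genes. The hippocampus has a clock of its own, set by the suprachiasmatic nucleus, so levels of most of these transcripts depend on the hour of dissection.

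Each of the 10 genes had 1 probe set. All values below are deposited log2 values, and a difference of 1 on this scale is a doubling. In each Old column 15915 of 22206 values (71.7%) fall on a straight line once sorted. They were not used, so that only Per2, Per3, Cry2 and Clock had measured values in Old mice. The comparison of OldD with Young mice covered all 10 genes, and the comparisons of OldD with Old and of Old with Young covered 4. A gene was called where limma gave it both an unadjusted p under 0.05 and a fold change above 1.5, the cut-off of the study's methods and the threshold meant below.

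In OldD against Young mice, 1 of the 10 clock genes passed this threshold, Arntl, on the lower side. Of all 22206 probe sets 1.7% passed, with 0.757% passing on the lower side. Dbp reached an unadjusted p under 0.05 at a fold change below 1.5, and the other 8 genes did not. In OldD against Old and in Old against Young mice 0 of the 4 measured clock genes passed, where 1.54% and 1.29% of 6291 probe sets did. In limma 0 of the 4 had an unadjusted p under 0.05 in either comparison, against 5.33% and 4.26% of probe sets, and 0 of the 4 had groups that did not overlap, against 11% and 8.71%. No probe set of any comparison reached an adjusted p under 0.05 (Benjamini-Hochberg over all probe sets of that comparison, limma). Differences were on the higher side for 5 clock genes and on the lower side for 5, with a median of -0.01 against 0.00 over all probe sets, of which 50.6% were above 0. In whole tissue, fewer cells of a type and less RNA per cell cannot be told apart.

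**Figure D1:**
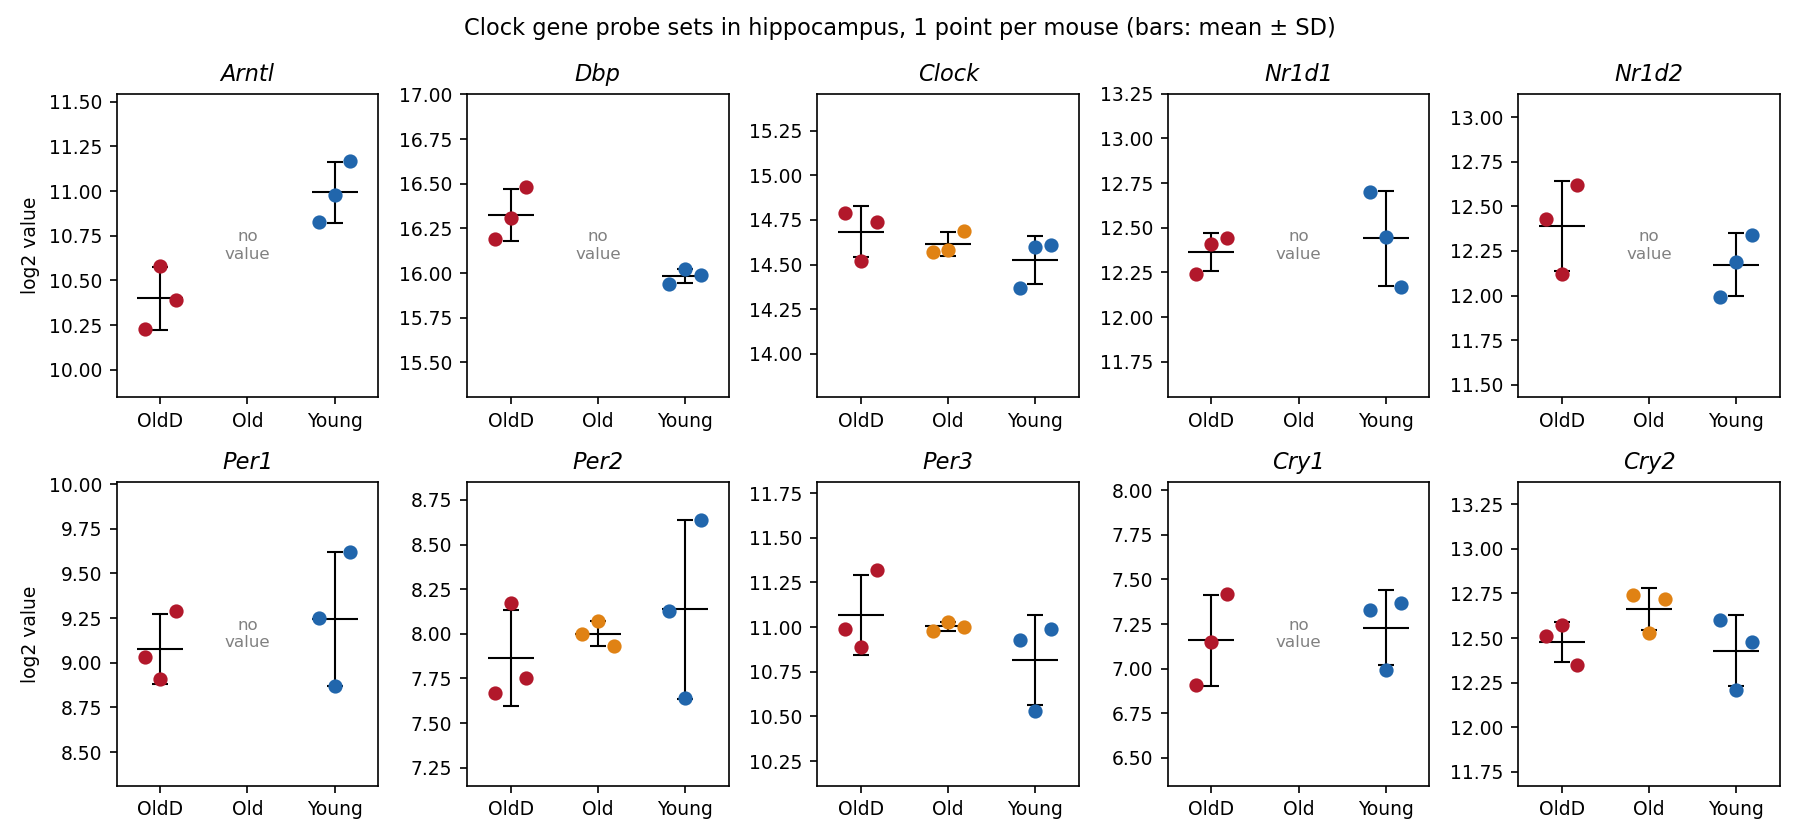
Log2 values of the 10 clock gene probe sets in each mouse, with the group mean and SD as bars (n = 3 mice per group), and every panel spanning the same log2 range. Arntl and Dbp are the panels in which the OldD and Young points do not overlap, and "no value" marks the 6 genes without measured values in Old mice.

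Arntl encodes BMAL1, the partner without which the clock of a mouse cell stops. Its log2 values were 10.23, 10.58 and 10.39 in OldD mice 2, 6 and 11, against 10.83, 10.98 and 11.17 in Young mice 7, 19 and 20. The groups did not overlap, the lowest Young mouse being above the highest OldD mouse. Arntl averaged 10.40 ± 0.18 in OldD mice and 10.99 ± 0.17 in Young mice (SD, n = 3 each). It was lower in OldD mice, with a difference of -0.59 on the log2 scale (SE 0.16, 95% interval -0.97 to -0.22), a fold of 0.663, with an unadjusted p of 0.00614 and an adjusted p of 0.860 in limma. Its p was the 129th smallest of 22206. An exact permutation test over the 6 mice gave p = 0.1 (two-sided), the smallest that 3 against 3 mice allow. Probe sets whose groups did not overlap made up 10.4% of all, and 2 of the 10 clock genes were among them. The fold stood close to the threshold of 0.585 on the log2 scale. The difference was -0.51 without Young mouse 20 and likewise -0.51 without OldD mouse 2, both short of it.

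The second annotated start of Arntl carries the core of a RORE (TAGGTCA on either strand), the element that REV-ERB and ROR receptors bind, at position 31 of the transcript. It is shown because Arntl is the clock gene that passed the threshold. The bases are the plus strand of chr7:113207530-113207559 in GRCm38.p6 from RefSeq, positions 20 to 49 from the start, with the core in capitals.
Arntl: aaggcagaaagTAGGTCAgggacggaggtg
The same core was present in 2.61% of all 32851 promoter windows of RefSeq genes (from 250 bases before to 50 bases after a start), and in the windows of 1 of the 9 clock genes that have one.

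Clock encodes the DNA-binding partner of BMAL1. Its log2 values were 14.79, 14.52 and 14.74 in OldD mice, 14.57, 14.58 and 14.69 in Old mice, and 14.37, 14.60 and 14.61 in Young mice. The 3 groups overlapped. The difference of OldD from Young mice was 0.16 (SE 0.14, 95% interval -0.15 to 0.46, unadjusted p = 0.282 in limma), and those of OldD from Old and of Old from Young mice were 0.07 and 0.09. The subunits of the activator thus had unlike values: Arntl was past the threshold and Clock was not, and their 2 differences were not tested against each other.

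The repressor arm holds the Per genes, whose proteins carry the complex into the nucleus and are degraded in turn, and the Cry genes, whose proteins bind and silence BMAL1-CLOCK. None of these 5 genes passed the threshold or reached an unadjusted p under 0.05 in any comparison with all mice in the fit (limma), and their groups overlapped in each. Per1, the Per gene that responds fastest to light and neuronal activity, had log2 values of 9.03, 8.91 and 9.29 in OldD mice and of 9.25, 8.87 and 9.62 in Young mice. Its difference was -0.17 (SE 0.21, 95% interval -0.66 to 0.32). Young mouse 19 and Young mouse 20 were the lowest and the highest of the 6 for Per1, and without Young mouse 20 the difference was 0.02.

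Per2, whose loss shortens the free-running period of mice, had log2 values of 7.67, 8.17 and 7.75 in OldD mice, 8.0, 8.07 and 7.93 in Old mice and 8.13, 7.64 and 8.64 in Young mice. The Young mice alone spanned 1.0, from mouse 19 to mouse 20, and enclosed all values of the OldD and Old mice. The difference of OldD from Young mice was -0.27 (SE 0.24, 95% interval -0.80 to 0.25), and those of OldD from Old and of Old from Young mice were each -0.14 (SE 0.24). Single Young mice moved the difference of OldD from Young mice: it was -0.52 with an unadjusted p of 0.034 (limma) without Young mouse 19, still short of a fold of 1.5, and -0.02 without Young mouse 20.

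Per3, the member of the family whose loss leaves the mouse clock largely running, had log2 values of 10.99, 10.89 and 11.32 in OldD mice, 10.98, 11.03 and 11 in Old mice and 10.93, 10.53 and 10.99 in Young mice. OldD mouse 11 was the highest and Young mouse 19 the lowest of the 9. The difference of OldD from Young mice was 0.25 (SE 0.17, 95% interval -0.12 to 0.62) and was -0.02 without those mice. Both are also the mice with high choroid plexus markers described below.

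The windows of Per1 and Per3 hold different clock elements, shown here to set the activator's sites beside those of the output factor. Per1 has an E-box (CACGTG, the site of BMAL1-CLOCK) at position -166 from its first start. Per3 has 2 D-boxes (TTATGTAA or TTACGTAA, the site of DBP and its relatives) at positions -205 and -158. The Per1 stretch is the plus strand of chr11:69098756-69098815 and the Per3 stretch the minus strand of chr4:151044804-151044882 (GRCm38.p6, RefSeq), with the motifs in capitals.
Per1: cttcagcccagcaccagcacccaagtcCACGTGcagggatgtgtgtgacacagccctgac
Per3: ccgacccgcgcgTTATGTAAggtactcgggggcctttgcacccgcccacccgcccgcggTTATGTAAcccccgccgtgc

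Cry1, which lengthens the period and holds the late repressed phase, had log2 values of 6.91, 7.15 and 7.42 in OldD mice and of 7.33, 6.99 and 7.37 in Young mice. The lowest and the highest mouse were both OldD mice, and the difference was -0.07 (SE 0.19, 95% interval -0.49 to 0.35). Cry2, its paralog with the opposite effect on the period, had log2 values of 12.51, 12.57 and 12.35 in OldD mice, 12.74, 12.53 and 12.72 in Old mice and 12.60, 12.21 and 12.48 in Young mice. Old mice 3 and 18 had the highest Cry2 values of the 9. The difference of Old from Young mice was 0.23 (SE 0.15, 95% interval -0.10 to 0.56), that of OldD from Old mice -0.19 (SE 0.15, 95% interval -0.52 to 0.14) and that of OldD from Young mice 0.05 (SE 0.15). These comparisons share mice and are not separate measurements of 1 effect.

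The Cry1 window holds an E-box and an E'-box (CACGTT, a weaker variant of the same site) close together, the only clock gene window here with both. The stretch is the minus strand of chr10:85185092-85185150 (GRCm38.p6, RefSeq). The capitals mark the E'-box, read here on its other strand as AACGTG, at position -79 from the start, and then the E-box, at position -60.
Cry1: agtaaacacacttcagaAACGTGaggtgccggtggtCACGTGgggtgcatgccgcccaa

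Nr1d1 and Nr1d2 encode REV-ERB alpha and beta, heme-binding receptors that repress Arntl through ROREs. Neither passed the threshold. Nr1d1 had log2 values of 12.24, 12.41 and 12.44 in OldD mice, inside the range of 12.70, 12.45 and 12.17 in Young mice, with a difference of -0.08 (SE 0.17, 95% interval -0.47 to 0.32). Nr1d2 had 12.43, 12.12 and 12.62 in OldD mice and 11.99, 12.19 and 12.34 in Young mice. The groups overlapped, and the difference was 0.22 (SE 0.18, 95% interval -0.19 to 0.63). The receptors that repress Arntl thus had values on either side of 0, with intervals that include it.

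Dbp, a factor of the PAR bZIP family and a direct target of BMAL1-CLOCK, had log2 values of 16.19, 16.31 and 16.48 in OldD mice and of 15.94, 16.02 and 15.99 in Young mice. Every OldD mouse was above every Young mouse, and the Young mice lay within 0.08 of each other. Dbp averaged 16.33 ± 0.15 in OldD mice and 15.98 ± 0.04 in Young mice (SD, n = 3 each). The difference was 0.34 (SE 0.14, 95% interval 0.02 to 0.67), a fold of 1.27 that lies under the study's threshold, with an unadjusted p of 0.0420 and an adjusted p of 0.860 in limma and p = 0.1 in the exact permutation test (two-sided). An unadjusted p under 0.05 was reached by 5.71% of probe sets and by 2 of the 10 clock genes. The unadjusted p of Dbp was 0.0343 without OldD mouse 2 and over 0.05 without any other single OldD or Young mouse, at most 0.130 without OldD mouse 11, where the difference was 0.27 (limma).

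Of 28 further clock pathway genes, 25 were on the array and were compared between OldD and Young mice, and 4 of them had measured values in Old mice. In OldD against Young mice 1 passed on the higher side, Ciart, and 1 on the lower side, Timeless, where 0.941% and 0.757% of all probe sets did. Differences were above 0 for 16 and below 0 for 9, with a median of 0.05. An unadjusted p under 0.05 was reached by 1 gene on the higher side and 3 on the lower side, against 3.02% and 2.69% of all probe sets. In OldD against Old and in Old against Young mice 0 of 4 passed the threshold, where 1.54% and 1.29% of 6291 probe sets did. Between Old and Young mice 1 of the 4, Ciart, had an unadjusted p under 0.05 in limma, against 4.26% of probe sets. The Old and Young groups did not overlap in 2 of the 4, Ciart and Avp, against 8.71%. Avp, at a low level of 4.30 in Old and 4.68 in Young mice, had a difference of -0.38 (SE 0.19, unadjusted p = 0.0678 in limma).

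Ciart encodes CHRONO, a repressor that binds BMAL1 and is itself switched on through E-boxes. Its log2 values were 8.80, 8.70 and 9.10 in OldD mice 2, 6 and 11, 8.60, 8.39 and 9.10 in Old mice 3, 8 and 18, and 8.31, 8.0 and 8.03 in Young mice 7, 19 and 20. All 6 adult mice were above all 3 Young mice, and the OldD and Old mice overlapped. Ciart averaged 8.87 ± 0.21 in OldD mice, 8.70 ± 0.36 in Old mice and 8.11 ± 0.17 in Young mice (SD, n = 3 each). It was higher by 0.75 in OldD than in Young mice (SE 0.20, 95% interval 0.31 to 1.20), a fold of 1.69, with an unadjusted p of 0.0036, the 67th smallest of 22206, and an adjusted p of 0.860 in limma.

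In Old against Young mice the Ciart difference was 0.58 (SE 0.20, 95% interval 0.14 to 1.03), with an unadjusted p of 0.0153, the 79th smallest of 6291, and an adjusted p of 0.999 in limma. This value lies just under the 0.585 that a fold of 1.5 requires, and without Old mouse 18 it was 0.38. Between OldD and Old mice the difference was 0.17 (SE 0.20, 95% interval -0.28 to 0.62). The 2 comparisons with Young mice share those mice. Without Young mouse 19 and OldD mouse 11 together, the OldD difference from Young mice was 0.58, short of the threshold.

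The Ciart window holds 3 E-boxes, at positions -116, -58 and -44 from the start, the most of any clock or pathway gene searched. They are shown because Ciart had the smallest p of the clock and pathway genes. The stretch is the minus strand of chr3:95882253-95882358 (GRCm38.p6, RefSeq), with the E-boxes in capitals.
Ciart: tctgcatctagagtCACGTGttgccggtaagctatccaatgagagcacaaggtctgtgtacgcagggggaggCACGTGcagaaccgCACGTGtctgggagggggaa

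Timeless, a replication-fork protein that also binds CRY, had log2 values of 3.60, 4.02 and 3.84 in OldD mice and of 4.09, 4.50 and 4.76 in Young mice, at a level below the log2 value of 6 used as a filter among the alternatives. It was lower in OldD mice, with a difference of -0.63 (SE 0.21, 95% interval -1.10 to -0.16, unadjusted p = 0.0151, adjusted p = 0.860 in limma). The groups did not overlap. Without Young mouse 20 the difference was -0.48, and without OldD mouse 2 it was -0.52, both short of the threshold.

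A pair of genes reached an unadjusted p under 0.05 on the lower side without the fold. Nampt, the rate-limiting enzyme of NAD salvage and a clock output, had log2 values of 9.70, 9.81 and 9.49 in OldD mice against 10, 10.14 and 10.15 in Young mice, a difference of -0.43 (SE 0.15, unadjusted p = 0.0195 in limma). Fbxw11, an F-box protein that marks phosphorylated PER for degradation, had 13.32, 13.26 and 13.20 against 13.58, 13.55 and 13.59 in Young mice, a difference of -0.31 (SE 0.13, unadjusted p = 0.0436 in limma). In each the OldD and Young mice did not overlap, which held for 4 of the 25 pathway genes, Ciart and Timeless included, and for 10.4% of all probe sets. Btrc, the paralog of Fbxw11, had a difference of -0.22.

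The remaining pathway genes had intervals that include 0. Hlf, a PAR bZIP relative of Dbp, had a difference of 0.45 (SE 0.23, unadjusted p = 0.0822 in limma), and Nfil3, which competes with these factors for D-boxes, had -0.44 (SE 0.25). Bhlhe41, an E-box repressor, had log2 values of 11.02, 11.11 and 11 in OldD mice and of 11.02, 10.61 and 10.43 in Young mice, a difference of 0.36 (SE 0.18, unadjusted p = 0.0805 in limma). Usp2, a deubiquitinase of clock proteins, had a difference of 0.36 (SE 0.24). Npas2, which can stand in for CLOCK in the forebrain, had a difference of 0.29 from Young mice (SE 0.25) and of 0.35 from Old mice (SE 0.25).

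The kinases that time PER degradation lay close to 0, with differences of 0.01 for Csnk1d and 0.05 for Csnk1e. Rora, a receptor that activates Arntl at ROREs, had log2 values of 10.10, 10.61 and 12.98 in OldD mice and of 10.06, 10.01 and 10.66 in Young mice. OldD mouse 11 stood above the other 5 mice. The difference was 0.99 (SE 0.65) and short of the threshold, 1.55 and past it without OldD mouse 2, and 0.00 without OldD mouse 11 and Young mouse 19. Another Rora probe set had 12.49 in OldD mouse 11, and the remaining one had 8.15 there, the lowest of the OldD mice. Rorb, its relative, had log2 values of 11.80, 12.06 and 12.80 in OldD mice and of 11.55, 11.42 and 12.15 in Young mice, a difference of 0.51 (SE 0.29). In OldD mouse 11 all 11 thalamus markers were above the mean of the other Young and OldD mice, in the median by 2.45 on the log2 scale, and their part in the Rora and Rorb values was not tested.

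**Figure D2:**
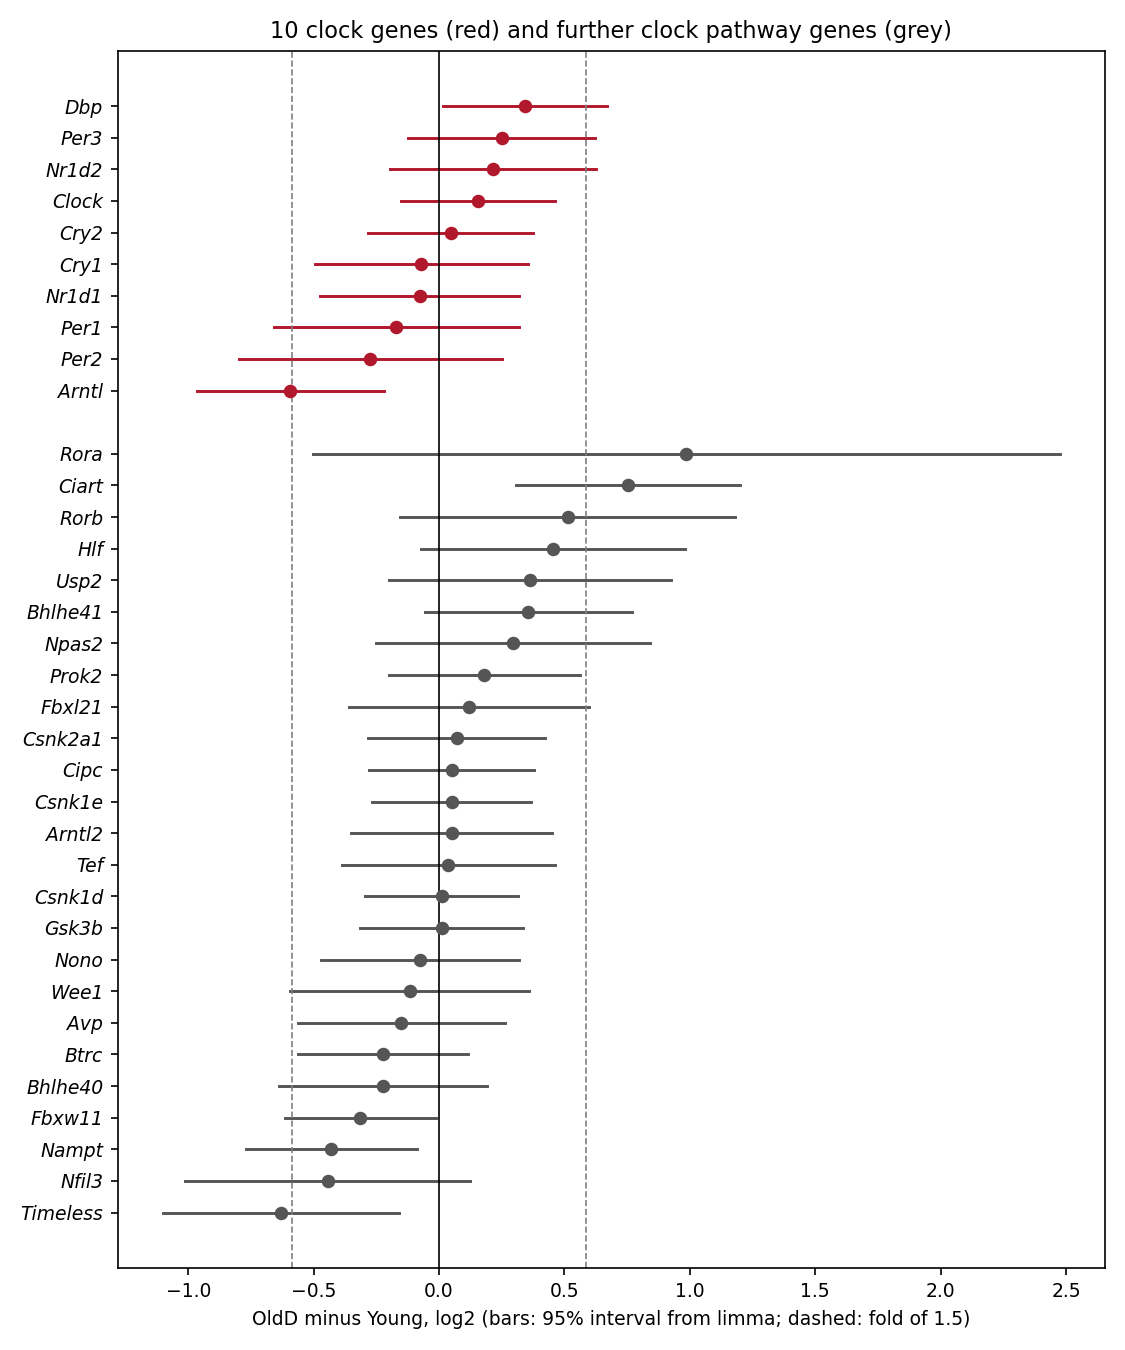
OldD minus Young differences (log2) of the 10 clock genes (red) and the 25 further pathway genes (grey), each with its 95% interval from limma, and dashed lines at a fold of 1.5. Arntl and Timeless lie past the line on the lower side and Ciart on the higher side with intervals clear of 0, while the Rora interval runs from -0.50 to 2.48.

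Exact motif matches were counted on both strands of the windows of 9 clock genes and 22 pathway genes. An E-box was found in 2 of the 9 (Per1 and Cry1) and in 6 of the 22, and in 8.09% of all 27025 genes with a window. An E'-box was found in 3 of the 9 (Cry1, Cry2 and Nr1d1) and in 2 of the 22, against 5.44% of all genes. A D-box was found in 1 of the 9 and 1 of the 22, against 1.23% of all genes, the pathway gene being Timeless. A cyclic AMP response element (TGACGTCA) was found in 0 of the 9 and in 1 of the 22, Hlf, against 2.03% of all genes. The Dbp, Clock and Nr1d2 windows held no match to any of the motifs. These are matches of letters in a short window, and say nothing of sites elsewhere in the genes. Among the genes with an E-box, the OldD minus Young differences ran from -0.17 for Per1 to 0.75 for Ciart, and Ciart was the only 1 of them past the threshold.

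**Figure D3:**
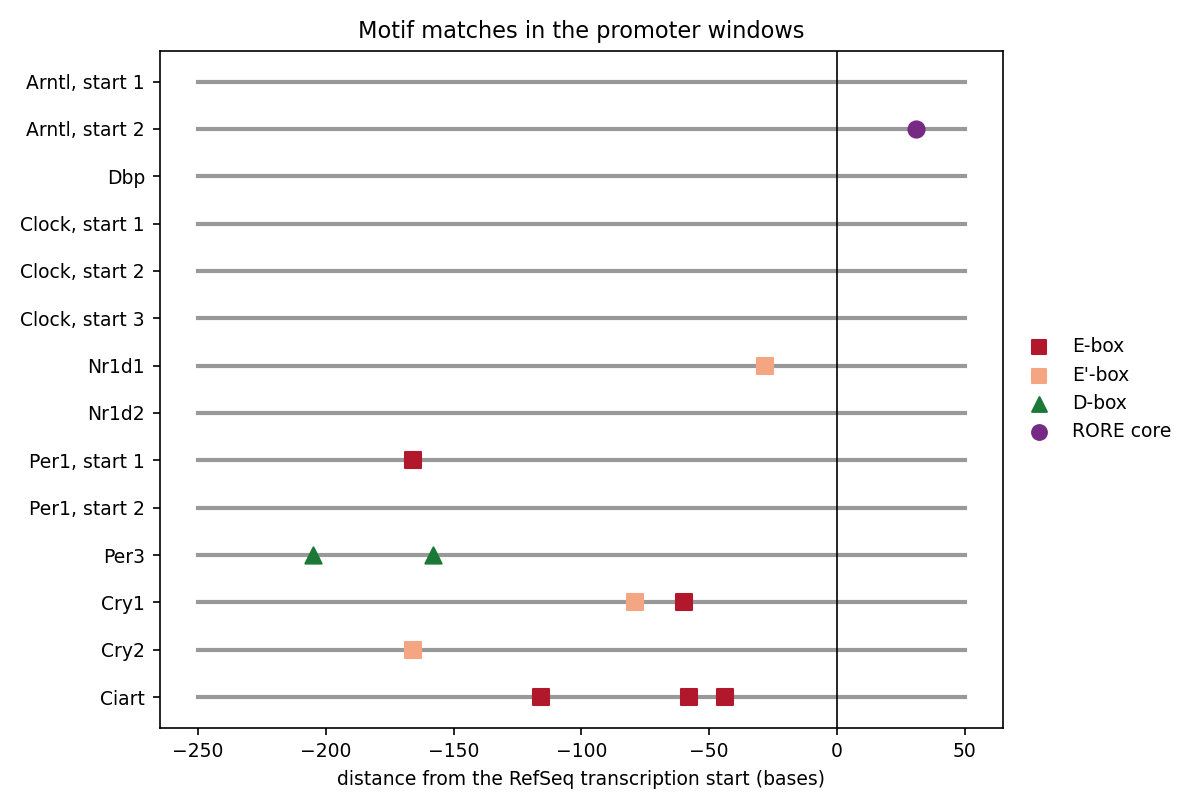
Motif matches in the promoter windows of 9 clock genes and Ciart, by distance from the RefSeq transcription start in bases, with a row for each annotated start. Ciart has 3 E-boxes, Per3 has 2 D-boxes, and the RORE core of Arntl lies 31 bases after its second start.

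The clock genes differed in how much mice of a group varied. The SD within the OldD and Young groups was 0.401 for Per2, wider than that of 88.0% of named genes, and 0.299 for Per1, wider than 70.6%. It was 0.107 for Dbp, wider than only 9.81% of named genes, 0.140 for Clock and 0.173 for Arntl, with a median of 0.226 over all named genes. Their levels differed too. Dbp and Clock lay above 99.2% and 97.4% of probe sets, and Per2 and Per1 above 60.4% and 69.4%. The SD was not compared among genes of like level. For the 5 Per and Cry genes, Young mouse 20 was above the mean of the other Young and OldD mice in 5 of 5 and Young mouse 19 in 0 of 5. The same share over all probe sets was not computed for either mouse, and Young mouse 19 also had the high choroid plexus markers described below. The extreme mice were Young mice 19 and 20 for Per1 and Per2, and OldD mice 2 and 11 for Cry1.

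**Figure D4:**
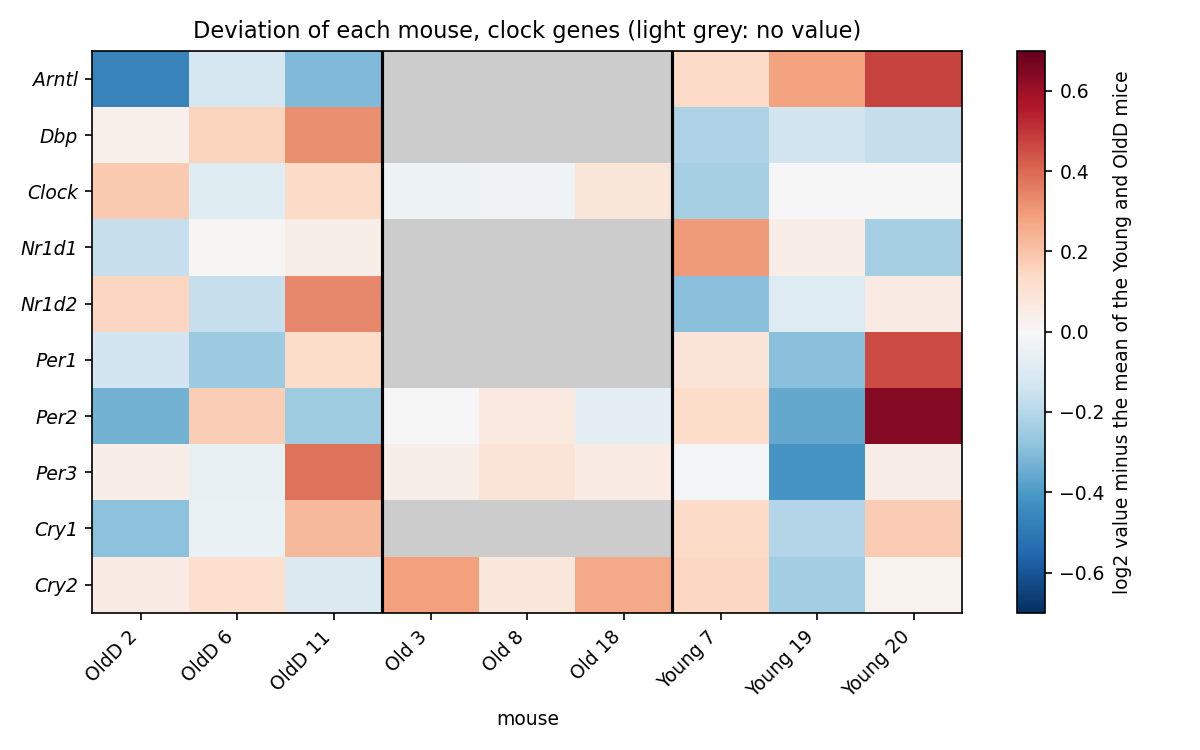
Log2 value of each mouse minus the mean of the Young and OldD mice, for the 10 clock genes, with the OldD, Old and Young mice from left to right and light grey where Old mice had no measured value. The Arntl and Dbp rows change colour between the OldD and Young mice, while in the Per1 and Per2 rows Young mice 19 and 20 stand at opposite ends.

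Activity-induced immediate early genes, to which Per1 belongs by its response, also varied from mouse to mouse. Of 16 such genes, 16 had differences below 0 in OldD against Young mice, with a median of -0.69, where 50.6% of all probe sets were above 0. On the lower side 7 passed the threshold, Egr1, Arc, Fos, Junb, Egr2, Egr3 and Nr4a1, against 0.757% of all probe sets, and the groups did not overlap in 3 of the 16, against 10.4%. Egr1, a zinc-finger transcription factor, had the smallest p of them, with log2 values of 12.50, 12.63 and 11.75 in OldD mice and of 13.78, 13.20 and 14.34 in Young mice, a difference of -1.48 (SE 0.33, unadjusted p = 0.0018, adjusted p = 0.860 in limma). Arc, which acts at synapses, averaged 8.0 ± 0.25 in OldD mice and 9.41 ± 0.79 in Young mice (SD, n = 3 each). Relative to the other Young and OldD mice the median of these genes was -0.19, -0.08 and -0.60 in OldD mice 2, 6 and 11, and 0.48, -0.27 and 0.98 in Young mice 7, 19 and 20. Young mouse 20 was thus highest, as for Per1 and Per2. The lowest was OldD mouse 11, whereas for Per1 and Per2 it was Young mouse 19, so the order of the mice differed. The part of the immediate early genes in the Per values was not tested.

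Across the 6 Young and OldD mice (9 where both genes were measured in Old), all 45 pairs of clock genes were correlated, with exact permutation p-values adjusted over the 45 pairs. In 1 pair the unadjusted p was under 0.05, Clock with Nr1d2, with a Pearson r of 0.904 (exact permutation p = 0.0181, adjusted p = 0.715) and a Spearman rho of 0.943 (exact permutation p = 0.0167, adjusted p = 0.75). Without OldD mouse 2 and Young mouse 7, r was 0.964. No pair passed the correction. Arntl and Dbp, whose group differences have opposite signs, had r = -0.735 over the 6 mice (exact permutation p = 0.1, adjusted p = 0.715) and r = 0.358 once each group's mean was removed. The latter r rests on the same 6 mice and was not tested. After the same removal 30 of the 45 pairs had a positive r. The pairs share genes and mice, and the share over all gene pairs of the array was not computed, so this count is a description only.

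The genes whose deviations from the group means were most like those of Arntl over the 6 mice were Adgrl4, Mdga2, Tceal9, Mbd1 and Pak2, with r from 0.993 to 0.999. Those most like Dbp were Ano6, Srgap1, Chrac1, Tle3 and Pld2, with r from 0.989 to 0.992. Over only 6 mice, 74 of 11092 genes (0.667%) had r of at least 0.95 with Arntl and 82 (0.739%) with Dbp. No clock gene was among these 5 for either. The clock gene most like Arntl was Per2 (r = 0.670) and that most like Dbp was Cry1 (r = 0.622).

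The tissue label was checked on marker genes. Of 11 hippocampal markers on the array, 9 lay above the array's median in every mouse, as did 1 of 7 markers of the suprachiasmatic nucleus, 1 of 6 of the medial habenula, 7 of 11 of the thalamus and 4 of 14 of the choroid plexus. All 14 choroid plexus markers stood above the mean of the other Young and OldD mice in OldD mouse 11 (median 3.22) and in Young mouse 19 (median 3.58), and summed to between 10.7 and 19.3 in OldD mice and between 13.1 and 19.2 in Young mice on the log2 scale. Only 3 of the choroid plexus markers had measured values in Old mice. In Old mice 3, 8 and 18 these were 10.2, 6.79 and 9.55 for Kcnj13, 5.6, 3.94 and 5.33 for F5, and 9.27, 7.74 and 7.64 for Kl. Kcnj13 was 14.74 in OldD mouse 11 and 14.88 in Young mouse 19, and between 7.42 and 8.42 in the other Young and OldD mice. Thalamus markers stood apart in OldD mouse 11 alone. Without these 2 mice the Arntl difference was -0.60 with an unadjusted p of 0.035 in limma, past the threshold. The Dbp difference was 0.28 with an unadjusted p of 0.170 in limma. That fit left 2 mice in each group, and more probe sets of the array passed the threshold in it than with all mice. Array medians of the Young and OldD mice lay between 6.62 and 6.71, and arrays correlated at r from 0.990 to 0.995 across probe sets.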

How the data were processed

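Hippocampal RNA of 9 mice was hybridised to Clariom S arrays, 1 array per mouse. The authors normalized the arrays in the Transcriptome Analysis Console and deposited log2 values per probe set. How background was corrected and probes were summarised is not given in the sources used here. Array number, 3 mice per group, limits the precision. The 15915 filled values of the Old columns were set to missing. Of 22206 probe sets, 19572 had 1 gene symbol, 0 several and 2634 none in the platform annotation, and all 19572 matched RefSeq genes by Entrez ID. Rora and Rorb were read from the probe set with the highest mean.

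The lmFit and eBayes functions of limma 3.58.1, under R 4.3.3, fitted a single linear model to all mice (4.22 prior degrees of freedom). Adjusted p-values are Benjamini-Hochberg values across every probe set tested in that comparison. The planned model assumed Old values for every probe set, which most lack. Probe sets without Old values, those of Arntl and Dbp among them, were fitted on the Young and OldD mice alone. The fit was tested on simulated data. Exact permutation tests between groups were run in R and those of gene pairs in Python 3.11.15, with ranks from scipy 1.17.1. Figures were drawn in matplotlib 3.10.9. Promoter windows are from RefSeq (GRCm38.p6), in which 9 of 10 clock genes and 22 pathway genes had an entry.

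The clock genes, the lists and the rules were chosen with earlier results of these data known. Named are all 10 clock genes, pathway and neighbouring genes past the threshold or among the 4 smallest p of their list, and the 5 genes most like Arntl and Dbp. Csnk1d, Csnk1e and Fkbp5 were named for their role after their values were seen. The 19 alternatives were other fits, scalings and filters, and leaving out each mouse in turn.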

Additional observations from a re-analysis of the deposited data

How the results depend on the processing

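Over 19 alternatives, the 10 clock genes gave 190 differences between OldD and Young mice, with 3 calls lost, all of Arntl, and 0 gained. The count past the threshold, 1, was 0 with quantile normalization, where Arntl had -0.58, and 0 to 1 when each mouse was left out, 0 without Young mouse 20 or OldD mouse 2. The Arntl difference ran from -0.68 to -0.51 and that of Dbp from 0.27 to 0.41. Uncalled differences changed sign at least once in 5 clock genes, Per1, Per3, Cry1, Cry2 and Nr1d1. In OldD against Old and Old against Young mice the count stayed at 0 of 4. Of the pathway genes, 2 passed in OldD against Young mice. The count was 1 with a t-test, named in the study's general statistics rather than for its arrays, with the one-way model without moderation and with a mean log2 value of at least 6, where Timeless was lost or left out, and 1 without Young mouse 19 and OldD mouse 11, and it ran from 2 to 4 when each mouse was left out, 4 without OldD mouse 2, where Timeless was lost and Rora (1.55), Rorb (0.72) and Usp2 (0.64) were gained. Other gains were Rorb (0.73) without Young mouse 20, Hlf (0.68) without Young mouse 7 and Nfil3 without Young mouse 19 (-0.69) and without Young mouse 19 and OldD mouse 11 together (-0.68, where Ciart and Timeless were lost). In Old against Young mice the pathway count of 0 became 1 (Ciart) with quantile normalization and with median centring, where its difference was 0.60 and 0.59, and ran from 0 to 1 when each mouse was left out, 1 without Young mouse 7, Old mouse 3 or Old mouse 8. The cause of these shifts was not tested. No paired analysis was possible because mouse numbers are not shared between the groups. With 3 mice per group an exact permutation test cannot give a p under 0.1. In Old mice 6 of the 10 clock genes, Arntl and Dbp among them, have no value here, so the 2 adult groups were not compared for them. The hour of dissection was not given in the sources used here, and its part in any difference was not tested.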

Other observations

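Temperature-responsive genes, which include RNA-binding proteins known to act on Clock transcripts, were measured for 7 of 8 listed genes in OldD and Young mice. The threshold was passed by 0 of the 7, against 1.7% of all probe sets. Rbm3, a cold-inducible RNA-binding protein, had log2 values of 15.39, 15.68 and 15.46 in OldD mice and of 14.98, 14.67 and 15.13 in Young mice, a difference of 0.58 (SE 0.17, unadjusted p = 0.0089, adjusted p = 0.860 in limma). This value lies just under the 0.585 that a fold of 1.5 requires. Cirbp, its relative, had 12.14, 12.34 and 12.15 in OldD mice and 11.86, 11.72 and 11.97 in Young mice, a difference of 0.36 (SE 0.15, unadjusted p = 0.0380 in limma). Hsph1, a heat-inducible chaperone, had a difference of -0.41 (SE 0.14, unadjusted p = 0.0198 in limma). In these 3 of the 7 genes the OldD and Young mice did not overlap, against 10.4% of all probe sets. The same 3 of the 7 had an unadjusted p under 0.05 in limma, against 5.71% of all probe sets.

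Glucocorticoid-responsive genes, many of which follow the daily rhythm of corticosterone, were measured for 12 of 12, with 5 differences above 0, 7 below 0 and a median of -0.17. Past the threshold on the lower side were 2 of the 12, against 0.757% of all probe sets: Ddit4, an inhibitor of mTOR signalling, with a difference of -0.60 (SE 0.17, unadjusted p = 0.0080 in limma), and Cdkn1a, a cell cycle inhibitor, with -1.02 (SE 0.44, unadjusted p = 0.0486 in limma), whose groups overlapped. Fkbp5, a marker of glucocorticoid receptor activity, had a difference of 0.04 (SE 0.17). Klf9, a receptor target with a daily rhythm, had log2 values of 13.43, 13.48 and 13.50 in OldD mice and of 13.88, 13.69 and 14.03 in Young mice, a difference of -0.40 (SE 0.15, unadjusted p = 0.0264 in limma).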
